A study of Vitis vinifera with 6 samples.

Results

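The genes described here are 78 gene models of the grapevine genome (Vitis vinifera) that lie in 7 runs of neighbours, out of 29549 models on the array. The runs were chosen by their response: each is a stretch of consecutive models in which most members had a higher signal after ultraviolet-C light than in the dark. The contrast of UV with dark therefore chose the members, and their values in that contrast are given as a description with no p-value. The runs lie on chromosomes 1 (14 models), 2 (11 models), 3 (13 models), 5 (8 models), 6 (9 models), 14 (13 models) and 18 (10 models). Each model is named by its run and its running number, so that model 102 of the chromosome 6 run is the probe set CHR6_JGVV9_102_T01. The files do not pair these identifiers with gene names, and none of the 78 was found in the reference gene table (0 matched). Neighbours are models with successive numbers in the same annotation block (the number after JGVV), and no coordinates were at hand to check their order.

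All samples were skin of wild-type Pinot Noir berries from a vineyard, and the marker genes of skin could not be checked without gene names. In the UV group, 3 samples came from berry clusters that stood for 1 hour under a 253.7 nm lamp at a distance of 50 cm. In the dark group, 3 samples came from clusters that stood beside the lamp for the same hour under a box. Each sample was a separate cluster and was hybridised to 1 one-colour array, and the 6 arrays shared 1 slide with the groups on separate positions, so position and group cannot be told apart.

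UV-C is the most energetic band of ultraviolet light and is strongly absorbed by nucleic acids. In grape berry skin it is known as an elicitor: irradiated skin builds up stilbenes such as resveratrol, which act as defence compounds. Genes of plant defence and secondary metabolism often belong to families whose members arose by local duplication and still lie side by side, and neighbouring copies may share enough sequence to bind the same array probe. The files do not show to which families the 7 runs belong.

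Median intensity over all models ranged from 8967 to 11200 units on the 6 arrays, and random-sequence control probes averaged 736 to 882 units. A model was taken as above background on an array when its intensity exceeded the mean of these controls by 2 SD, a limit of 1156 to 1434 units. Of the 78 members, 69 passed it on all 6 arrays, against 24460 of all 29549 models. Over all models the lowest correlation within a group was 0.989, and the highest between a dark and a UV array was 0.966. In whole skin, fewer cells of a type and less RNA per cell cannot be told apart.

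Across the 7 runs, 68 of 78 members were called higher after UV, 1 was called lower and 9 were not called (limma over all models, adjusted p under 0.05). Over the whole array 15.8% of models were called higher and 20.9% lower, and since the runs were picked on this contrast nothing is read from the excess. The log2 change exceeded 1 in 52 members, against 5.14% of all models, and exceeded 2 in 22 members, against 1.69%. It exceeded 4 in 4 members, all in the chromosome 6 run, against 0.115% of all models. All 3 UV arrays lay above all 3 dark arrays in 70 members on the scaled log2 values, against 22.4% of all models. The median log2 change of the members was 1.42, or 2.67-fold, and that of all models was -0.05. Among called rises the members' median was 1.61, and outside the runs it was 0.66.

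**Figure D1:**
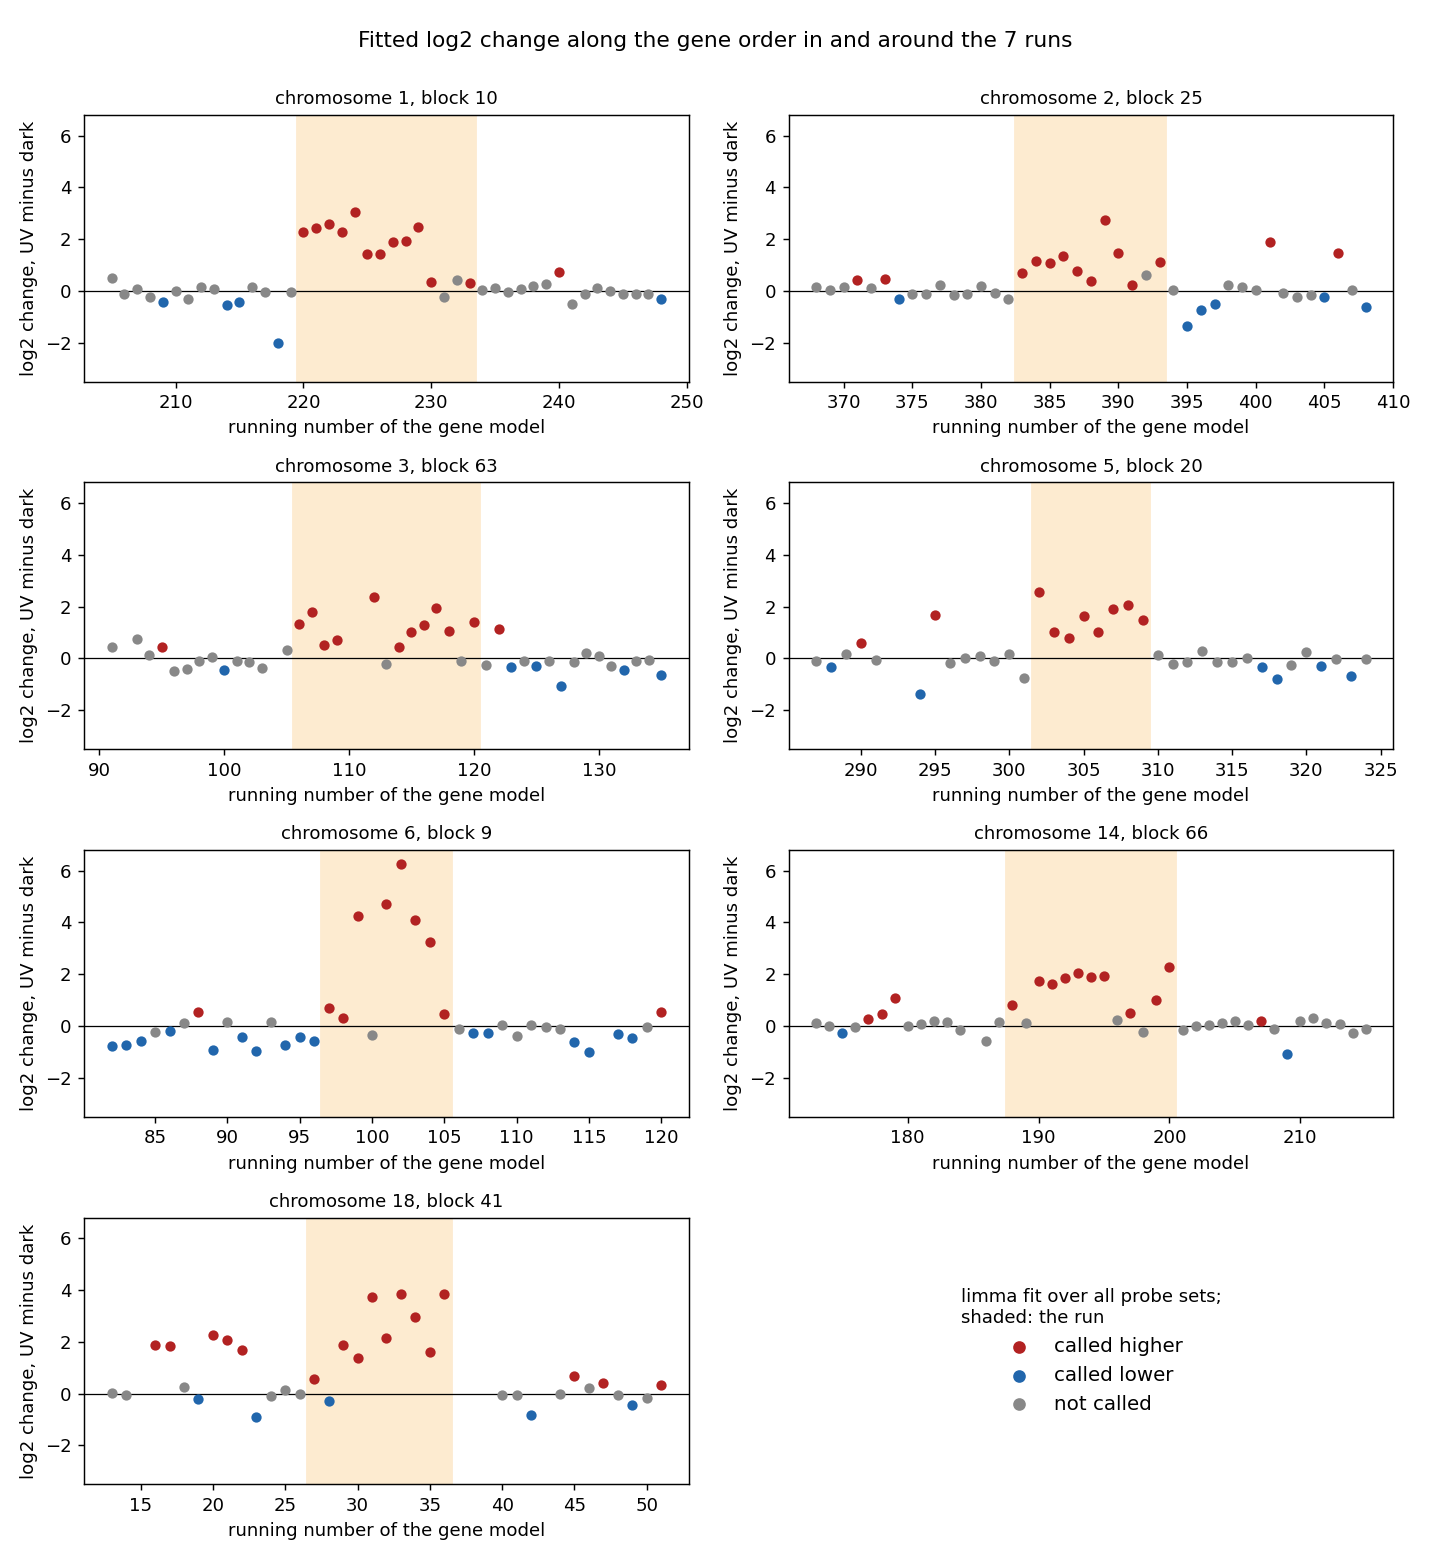
Each panel plots 1 run, with the running number of the gene model on the x axis and the fitted log2 change (UV minus dark, 3 arrays per group) on the y axis, for the run (shaded) and up to 15 numbers on either side. Red, blue and grey points are models called higher, called lower and not called. The largest values, up to 6.26, stand in the chromosome 6 panel, and models next to the shaded runs lie near 0 or below it in most panels.

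The runs differed in the size of their change. The median log2 change of a run was computed in each UV array against the dark mean, so the spread given does not contain that among dark arrays. The chromosome 6 run stood highest at 3.26 ± 0.30 (mean and SD, n = 3 UV arrays). The chromosome 18 run followed at 2.01 ± 0.40, the chromosome 1 run at 1.90 ± 0.22, the chromosome 14 run at 1.63 ± 0.052 and the chromosome 5 run at 1.56 ± 0.37. The chromosome 3 run stood at 1.11 ± 0.43 and the chromosome 2 run at 1.04 ± 0.061. The median of the members' fitted changes, used for the processing settings, was 1.07 in both of these runs. In the other runs it equalled the mean given here. Over the UV arrays, the values of the chromosome 6 run (2.96 to 3.56) did not overlap those of the chromosome 18 run (1.60 to 2.41). Those of the chromosome 1 run (1.74 to 2.15) lay above those of the chromosome 14 run (1.57 to 1.67). With any 1 of the 6 arrays left out, the medians on chromosomes 1 and 14 overlapped in range (1.74 to 2.09 and 1.48 to 1.82). Chromosome 1 was the higher in each of these fits. The other neighbours in the order of runs overlapped in range over the UV arrays and were not separated by the spread between them.

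**Figure D2:**
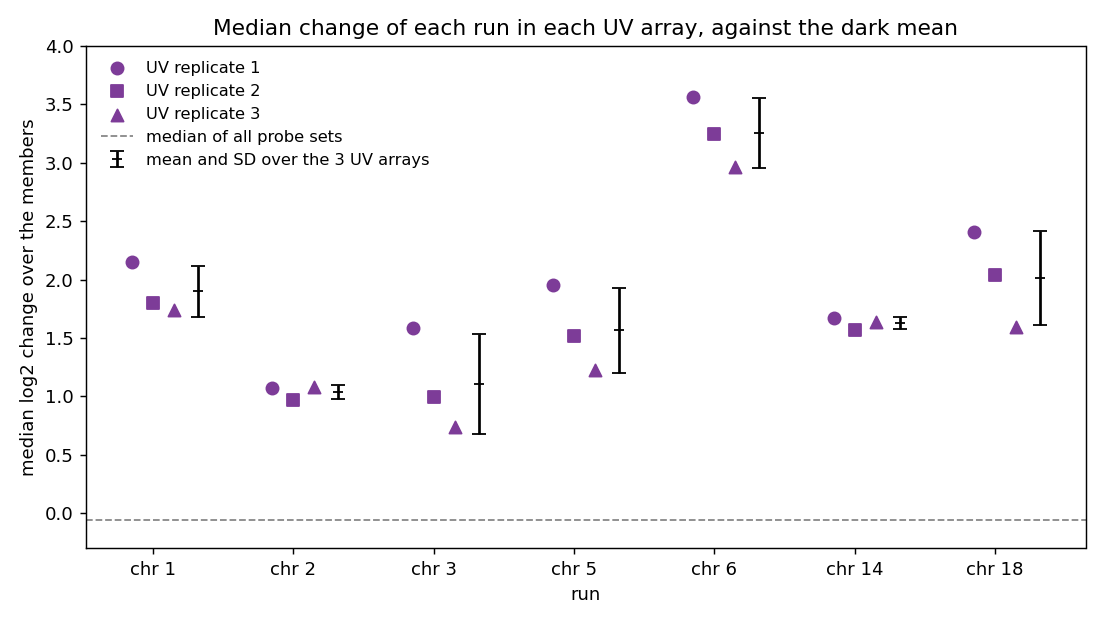
For each run, symbols give the median log2 change over its members in each of the 3 UV arrays against the mean of the dark arrays, and the bar gives their mean and SD (n = 3). The dashed line is the median of all probe sets. UV replicate 1 was the highest of the 3 in every run except that on chromosome 2, and the 3 arrays spread least in the runs on chromosomes 14 and 2.

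The chromosome 6 run, models 97 to 105 of annotation block 9, had a core of 5 strongly induced models and weakly changed ones at its edges. Of its 9 members 8 were called higher, and the called changes ran from 0.30 to 6.26. Model 102 had the largest change of all models on the array. Its intensity was 1114, 1040 and 1962 units in dark replicates 1 to 3 and 57817, 48507 and 43446 units in UV replicates 1 to 3. The dark arrays lay near the background limit, which 1 of 3 passed, and all UV arrays were far above it. The log2 change was 6.26 (SE 0.36), or 76.8-fold, and 5.33 without background correction, so the fold depends on a dark level that was barely measured.

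Model 101, next to it, read 1840, 1653 and 3253 units in the dark and 40126, 38227 and 36242 units after UV. It was above background on every array, and its log2 change was 4.71 (SE 0.29), or 26.1-fold. Models 99, 103 and 104 completed the core with log2 changes of 4.24, 4.08 and 3.26, which were 3.91, 3.37 and 2.67 without background correction. Model 103 was above background on 1 of 3 dark arrays, while models 99 and 104 were above it on all 3. After UV these 5 models ranged widely, from a mean of 9464 units for model 104 to 49923 units for model 102, after dark means of 1372 units for model 102 to 2924 units for model 99.

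Model 100 lay inside this core and did not share its course. It read 3037, 2492 and 3337 units in the dark and 1659, 2899 and 2321 units after UV, with overlapping groups and a log2 change of -0.34 (SE 0.19) that was not called. The edge members 97, 98 and 105 were called higher with small changes of 0.69, 0.30 and 0.45. Model 98 was bright before UV (29628 ± 3122 units in the dark, SD, n = 3), its deposited intensities overlapped between groups, and its call was lost when any array other than UV replicate 2 was left out (changes of 0.24 to 0.32). Model 98 was called in 7 of the 15 settings, the reported one and 14 alternatives in processing. The models just outside were 96, called lower with a change of -0.59, and 106, not called at -0.11. In the rest of the block, 20 of 239 models were called higher and 58 lower.

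The chromosome 18 run, models 27 to 36 of block 41, combined the next largest changes with the only member called lower. Here 9 of 10 members were called higher, by 0.56 to 3.86. Model 36 read 2918, 3327 and 4524 units in the dark and 44678, 39514 and 39127 units after UV. Its log2 change was 3.86 (SE 0.19), or 14.5-fold. Model 33 read 3667, 3664 and 5392 units in the dark and 48822, 52191 and 47695 units after UV, a change of 3.85 (SE 0.16), or 14.4-fold. In both, every UV array lay far above the brightest dark array.

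Model 31 was close to these with a change of 3.72, and model 34 followed with 2.95. The UV arrays of model 34 lay close together, at 15289, 14633 and 14976 units. Those of model 32 were spread more widely, with 46121, 35502 and 24947 units in UV replicates 1 to 3 and a change of 2.15. Model 28 was the member called lower. It was bright in the dark at 41000, 40158 and 39899 units and read 32504, 32000 and 32896 units after UV, with no overlap and a log2 change of -0.28 (SE 0.068), a small drop. The call was lost with median centring, where the change was -0.18, with the replicate number as a block (-0.28), and without dark replicate 2 (-0.23) or UV replicate 2 (-0.28). Model 28 was flanked by model 27 at 0.56 and model 29 at 1.87, both called higher.

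Model 26, just before this run, was not called at -0.02, and model 40, the next one measured after it, was not called at -0.04. A second group of rises lay close by: models 16, 17, 20, 21 and 22 of the same block were called higher, by 1.67 to 2.27. They are not members and were picked out after their values had been seen. Models 18 and 19 between them stood at 0.24 (not called) and -0.22 (called lower). Of models 23 to 26, which separate them from the run, none was called higher.

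The chromosome 1 run, models 220 to 233 of block 10, split into a responding part and a nearly flat end. Models 220 to 229 were all called higher, by 1.42 to 3.06, whereas models 230 to 233 changed by -0.23 to 0.40. Model 224 had the largest change. It read 2482, 3444 and 2194 units in the dark and 20879, 14575 and 14286 units after UV, a log2 change of 3.06 (SE 0.32), or 8.36-fold. Model 222 reached the brightest level of the run. It went from 7352, 10102 and 6790 units to 46266, 43088 and 37627 units, a change of 2.59 (SE 0.24), or 6.01-fold.

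Within the responding part of this run, models 225 and 226 had the smallest changes, both 1.42, from very different levels. Model 226 was clearly measured at 6758 ± 181 units in the dark and 15734 ± 1644 units after UV (SD, n = 3 each). Model 225 stayed under the limit on every dark array (987 ± 165 units) and passed it on all UV arrays (1416 ± 165 units, SD, n = 3 each). Its change was 0.70 without background correction. With no background correction, and with the dimmest signal that passed the limit on each dark array as the dark level, it was at least 1.16-fold higher. Its call was lost without dark replicate 2, where its change was 1.46.

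At the flat end, models 230 and 233 were called higher with changes of 0.33 and 0.30, and in both the deposited intensities of the groups overlapped. Model 230 was called in 8 of the 15 settings and lost its call when any array except dark replicate 3 was left out (changes of 0.25 to 0.37), without scaling (0.21) and with the replicate number as a block (0.33). Model 233 was called in 4 of the 15 settings, with changes of 0.16 to 0.37 over all of them. Model 232 was not called, with 4131, 3917 and 5270 units in the dark, 5898, 4704 and 4850 units after UV and a change of 0.40 (SE 0.17). Model 231 was dim and not called, with 1543, 1353 and 1664 units in the dark, 1094, 1262 and 1342 units after UV and a change of -0.23 (SE 0.12). Model 219 before the run stood at -0.05 and model 234 after it at 0.02, neither called, and model 218, next to 219, was called lower at -1.99. The rest of the block held 48 models called higher and 59 called lower among 262.

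**Figure D3:**
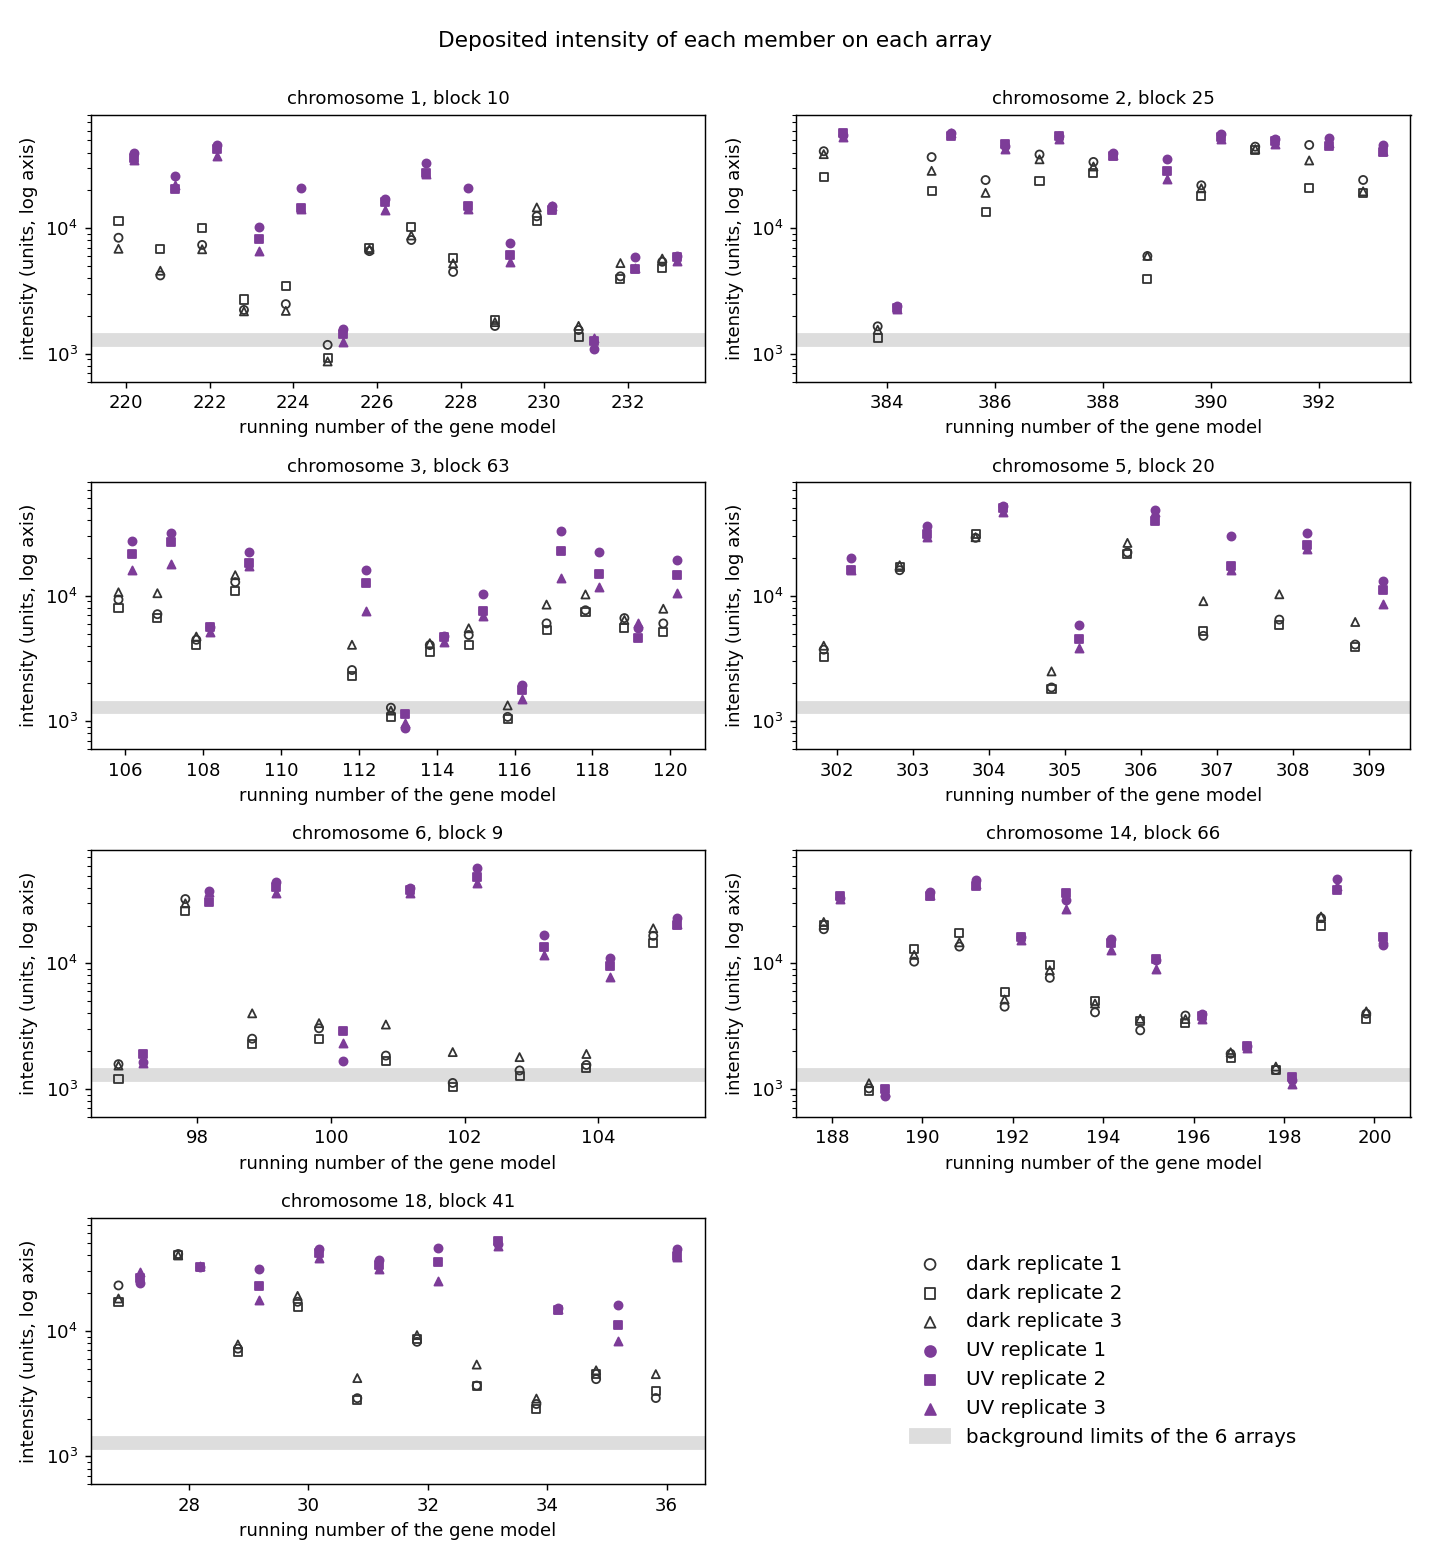
Deposited intensity (log axis, linear units) of every member on every array, by running number, with open symbols for the 3 dark arrays and filled symbols for the 3 UV arrays. The grey band spans the background limits of the 6 arrays, 1156 to 1434 units. Dark and UV symbols are far apart in models 99 and 101 to 104 of chromosome 6 and close together or mixed in the members that were not called.

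The chromosome 14 run, models 188 to 200 of block 66, had an even core and gaps. Models 190 to 195 were 6 neighbours with changes in a narrow range, from 1.63 to 2.03. Over the whole run 10 of 13 members were called higher. The largest change was that of model 200 at the end of the run, which read 3970, 3630 and 4139 units in the dark and 13990, 16293 and 15746 units after UV. Its log2 change was 2.29 (SE 0.079), or 4.88-fold. Model 193 was next, with 7662, 9699 and 8796 units in the dark, 31954, 36065 and 27223 units after UV and a change of 2.03 (SE 0.19), or 4.09-fold.

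Model 191 was the brightest member of this run after UV at 43567 ± 2534 units, from 15253 ± 1989 units in the dark (SD, n = 3 each). The gaps were models 189, 196 and 198, none of them called. Model 189 was at background on all 6 arrays (875 to 1108 units) and stood at 0.10 (SE 0.088). Model 196 was above background, at 3834, 3335 and 3598 units in the dark and 3954, 3836 and 3591 units after UV, and changed by 0.25 (SE 0.10). Model 198 read 1413, 1407 and 1504 units in the dark and 1172, 1243 and 1091 units after UV, where no array was above background, a change of -0.22 (SE 0.11). Model 187 before the run stood at 0.14 and model 201 after it at -0.13, neither called, with 33 models called higher and 49 called lower among the other 225 of the block.

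In the chromosome 5 run, models 302 to 309 of block 20, all 8 members were called higher, and it was the only run of the 7 with no gap. The changes ran from 0.78 to 2.56. Model 302, the first of the run, had the largest, from 3719, 3242 and 3998 units in the dark to 19814, 15968 and 15982 units after UV. Its log2 change was 2.56 (SE 0.10), or 5.89-fold. Model 308 went from 6453, 5875 and 10273 units to 31877, 25544 and 23424 units, a change of 2.06 (SE 0.22), or 4.17-fold.

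Model 304 had the smallest change of that run and was its brightest member, with 28959, 30919 and 29268 units in the dark and 51695, 49774 and 46261 units after UV. Its log2 change was 0.78 (SE 0.10), or 1.72-fold. The run had sharp ends: model 301 stood at -0.76 and model 310 at 0.11, neither called. The rest of the block held 55 models called higher and 111 called lower among 448.

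The chromosome 3 run, models 106 to 120 of block 63, held 13 measured models, since numbers 110 and 111 were not among the probe sets analysed. Of these, 11 were called higher by 0.43 to 2.39. Model 112 had the largest change, with 2559, 2280 and 4067 units in the dark and 16094, 12556 and 7625 units after UV. Its log2 change was 2.39 (SE 0.34), or 5.24-fold. Model 117 went from 6026, 5354 and 8504 units to 32832, 22799 and 13727 units, a change of 1.94 (SE 0.33), or 3.85-fold. In both models UV replicate 1 was far brighter than UV replicate 3, and the groups did not overlap. Model 118, with a change of 1.07, lost its call without dark replicate 1 (0.94), without dark replicate 2 (1.07) and with the replicate number as a block (1.07).

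Model 116 of this run stayed under the limit on every dark array (1156 ± 157 units) and passed it on all UV arrays (1740 ± 217 units, SD, n = 3 each). It was at least 1.41-fold higher by the bound used for model 225 of chromosome 1. Model 113 had the lowest change and was at background on all 6 arrays, at 886 to 1282 units, with -0.20 (SE 0.12). Model 119 was above background and overlapped between groups, with 6636, 5537 and 6415 units in the dark, 5491, 4597 and 6033 units after UV and a change of -0.08 (SE 0.14). Neither was called. Model 105 before the run stood at 0.34 and model 121 after it at -0.24, neither called, while model 122 was called higher at 1.15. In the rest of the block 38 of 228 models were called higher and 48 lower.

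The chromosome 2 run, models 383 to 393 of block 25, was the brightest before irradiation, with a median dark intensity of 28377 units against 10349 over all models. Of its 11 members 10 were called higher, by 0.21 to 2.74. After UV 4 of them averaged over 50000 units, close to the brightest model of any array. Whether the scanner's range held down their change was not tested. Model 389 had the largest change and started lower, with 5998, 3911 and 6016 units in the dark and 35721, 28667 and 24763 units after UV. Its log2 change was 2.74 (SE 0.16), or 6.68-fold.

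Model 390 went from 21966, 18026 and 20781 units to 55989, 53201 and 51277 units, a change of 1.48 (SE 0.055), or 2.79-fold. Model 391, beside it, had the smallest change of the run. It read 44619, 41924 and 42654 units in the dark and 51491, 49228 and 46619 units after UV, a change of 0.21 (SE 0.060), and its call was lost whichever of the 6 arrays was left out (0.19 to 0.24), and it was called in 7 of the 15 settings. Model 392 was not called. It read 46048, 21002 and 34639 units in the dark and 52467, 45337 and 48067 units after UV, and its change of 0.61 (SE 0.23) stood beside a wide spread of the dark arrays. It was called higher in 4 of the 15 settings: without dark replicate 1 (0.84), with median centring (0.74), from the authors' deposited table (0.66) and with a variance trend (0.61). Model 382 before the run stood at -0.30 and model 394 after it at 0.03, neither called. In the rest of the block 69 of 450 models were called higher and 96 lower.

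The runs stood apart from the remainder of their own annotation blocks. The other 2023 models of the same 7 blocks had a median log2 change of -0.07, with 292 called higher and 466 called lower, and 85 of them changed by over 1. The medians of the single blocks without their run lay between -0.11 and -0.04. Among the measured models next to each end of the runs, only model 96 of block 9 was called, and it was lower. This contrast between the inside and the outside of a run follows from how the runs were chosen.

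The level in the dark varied widely among members. With all models split into 4 equal bins by dark level, 16 members lay in the lowest bin, 39 in the second, 14 in the third and 9 in the highest. The median change of the members in these bins was 1.36, 1.92, 1.02 and 0.61. Of the 9 members in the highest bin, 1 changed by over 1, and over the whole array 0.0812% of models in that bin did so. The dark level is part of the change itself, so these values describe the members and show no dependence.

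The selection compared the groups and did not name the order of arrays within them. That order is still tied to the contrast, since a low dark array or a high UV array adds to the change. Shares of members above those outside the runs are therefore a description. Parts of the order were shared by most runs while others differed. In the dark group, on scaled values, replicate 1 was the lowest array in 54 of 78 members (69.2%). Among the members called higher it was the lowest in 49 of 68 (72.1%), against 50.6% of the models called higher outside the runs. The share outside was 54.5% for called rises over 1 and 37.4% for all models. By run, dark replicate 1 was the lowest in 8 of 14 members on chromosome 1, 12 of 13 on chromosome 3 and 8 of 8 on chromosome 5. It was the lowest in 6 of 9 on chromosome 6, 11 of 13 on chromosome 14 and 9 of 10 on chromosome 18, but in 0 of 11 on chromosome 2. In that run replicate 2 was the lowest array in 9 of 11 members. The same array was the highest in 11 of 13 members of the chromosome 14 run and in 9 of 14 of the chromosome 1 run. Replicate 3 was the highest dark array in 9 of 13 members of the chromosome 3 run, 6 of 8 of the chromosome 5 run and 7 of 9 of the chromosome 6 run. Among models called higher outside the runs, replicate 2 was the highest dark array in 39.8% and the lowest in 1011 of 4588, and replicate 3 was the highest in 39.0%. A single dark array was the lowest in most members of each run, replicate 2 on chromosome 2 and replicate 1 elsewhere. Among the called members on chromosome 1 the share was 58.3%, near the shares of called models outside the runs. Members were read on the same 6 arrays, so they do not repeat the observation. Cluster, array and slide position go together here and cannot be told apart, and no test was made of this.

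In the UV group, replicate 1 was the highest array in 60 of 78 members. Among the members called higher it was the highest in 56 of 68 (82.4%), against 63.5% of the 4588 models called higher outside the runs. The share outside was 64.6% for called rises over 1 and 41.0% for all models. Replicate 1 was the highest in all 12 called members of the chromosome 1 run and in all 11 of the chromosome 3 run. It was the highest in 5 of 10 on chromosome 2 and in 7 of 10 on chromosome 14. Replicate 3 was the lowest UV array in 47 of the 68 (69.1%), the 11 called members of the chromosome 3 run among them, against 44.6% of models called higher outside the runs. UV replicate 1 also correlated less with the dark arrays over all models, at a mean of 0.945 against 0.963 and 0.962 for the other UV arrays, and the part of this array in the members' values was not tested.

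Each member was read by 4 probes, and the files give their coefficient of variation (SD over mean) on each array. It is low when the probes report alike and high when they differ, as when few of them carry the signal. The median over the members was 0.482 in the dark and 0.453 after UV, against 0.407 and 0.416 over models outside the runs. It was lower after UV than in the dark in 42 of 78 members (53.8%), against 42.3% of all models outside the runs and 48.2% of those called higher. After UV it exceeded 1 in 10 members (12.8%), against 5.65% of models outside the runs. Among models called higher these shares were 11.8% of members and 7.28% outside the runs.

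In some strongly changed members the coefficient was low after UV. In model 390 of chromosome 2 the coefficient went from 1.29 in the dark to 0.155 after UV. In model 33 of chromosome 18 it went from 0.576 to 0.154, and in model 102 of chromosome 6 from 0.422 to 0.176. These 3 sets averaged 49569 to 53489 units after UV, near the top of the scale, where the brightest members, models 383 and 385 of chromosome 2, read 0.0493 and 0.0503. The part of that brightness in the low coefficients was not tested.

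In other members the coefficient was high after UV. In models 103 and 104 of chromosome 6 it went from 0.408 to 1.23 and from 0.311 to 1.12. In model 34 of chromosome 18 it went from 0.798 to 1.59, and in model 223 of chromosome 1 it was already 1.35 in the dark and reached 1.80 after UV. Models 103 and 104 averaged 1484 and 1635 units in the dark, near the background limit. The part of that dimness in their low dark coefficients was not tested. The probes of all these sets read unevenly after UV, and how many of them carried the mean intensity was not examined. Single probe values were not analysed here, and whether a probe read a neighbouring copy was not tested.

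**Figure D4:**
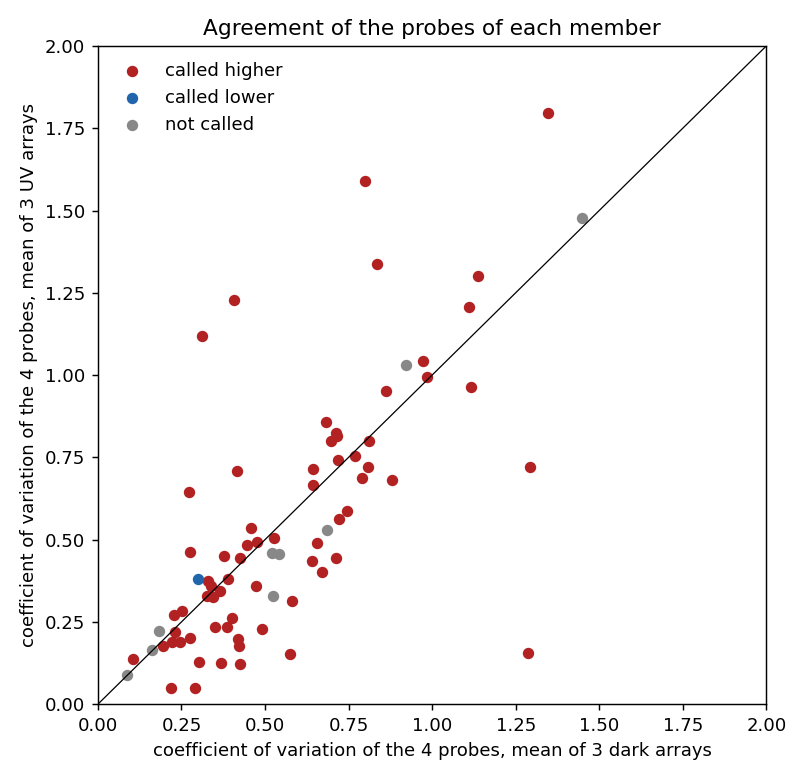
Coefficient of variation of the 4 probes of each member, as the mean of the 3 dark arrays (x axis) and of the 3 UV arrays (y axis), coloured by call, with the line of equality. Model 390 of chromosome 2 lies far below the line (1.29 and 0.155), and models 103 and 104 of chromosome 6 and model 34 of chromosome 18 lie far above it.

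The calls of most members held under other choices of processing. The members were picked for rises on these same arrays, and the matching share of all models called higher was not counted. The counts below are therefore a description. Of the 68 members called higher, 58 were called higher in the reported setting and in each of 14 alternatives that held them, and 10 lost the call in at least 1. Those 10 were models 225, 230 and 233 of chromosome 1, 388 and 391 of chromosome 2, 114 and 118 of chromosome 3, and 97, 98 and 105 of chromosome 6. Of these, models 225 and 118 had changes of over 1, at 1.42 and 1.07. The calls of models 388, 114 and 97 were lost without scaling between arrays, and that of model 105 there and without dark replicate 2 (0.43). The chromosome 6 run had the highest median in each of these settings.

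**Figure D5:**
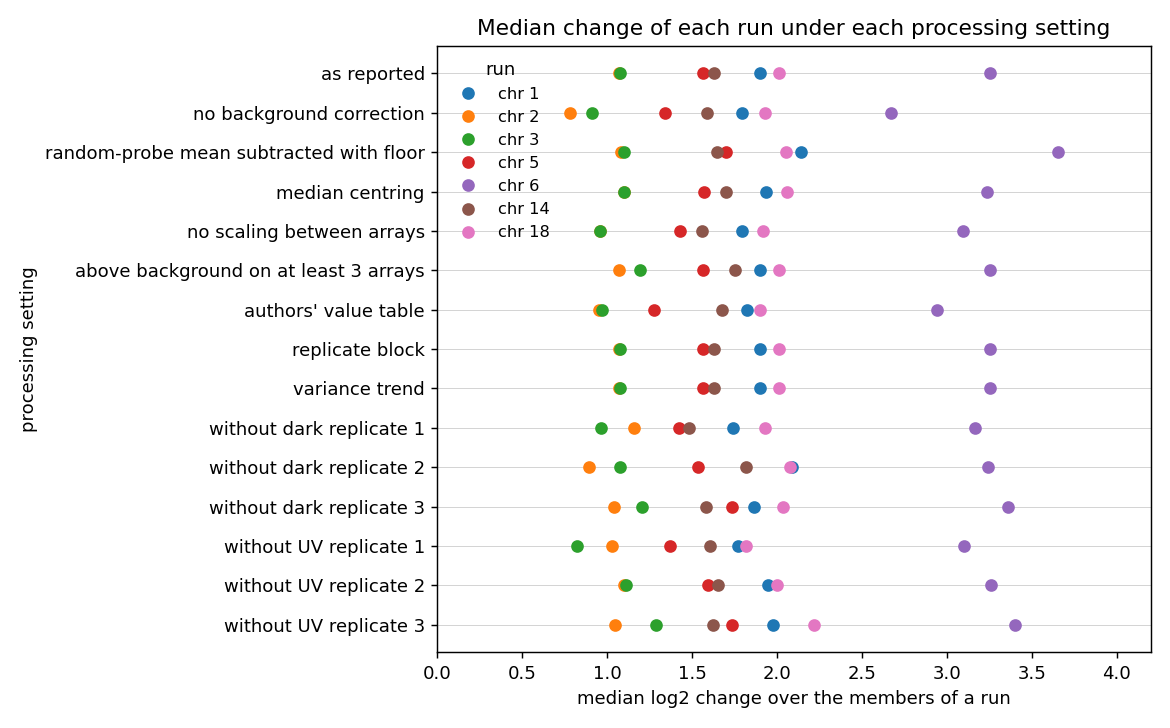
Median log2 change over the members of each run (x axis) in the reported setting and under each of the 14 alternatives (y axis), with a colour for each run. The chromosome 6 run lies to the right of all others in each row, between 2.67 and 3.66, and the runs on chromosomes 2 and 3 lie to the left of the others.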

How the data were processed

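RNA was Cy3-labelled at NimbleGen, per the labels' protocols. The deposited files hold, per the file headers, for every probe set, the linear mean intensity of its perfect-match probes and the coefficient of variation of those probes, a ratio of SD to mean. The number of probes per set is given as well. The authors also deposited a table on a log10 scale for 23096 sets (69 members), whose differences between arrays followed those of the log10 intensities (r = 1.00); its baseline is unknown, and it served as an alternative. For the image software, build and annotation, names are not given in the sources used.

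Intensities, with no sign of earlier scaling, were corrected with normexp (offset 50), quantile-scaled on log2 and fitted with limma 3.58.1 in R 4.3.3: UV against dark, 6 arrays, no covariate, two-sided, Benjamini-Hochberg over 29549 sets, threshold 0.05. The fit was tested on simulated data. The lower bounds of fold use quantile-scaled values without background correction. The number of arrays, 3 per group, limits the precision. Members were found from the identifiers in the selection rule. Per run, the 2 largest changes, the smallest and all members not called higher are named. The members and lists were chosen with earlier results of these data known. Alternatives changed the background correction, scaling, filter, source table, variance trend, replicate block and each array.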

Additional observations from a re-analysis of the deposited data

How the results depend on the processing

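Between 60 and 68 members were called higher in every alternative, against 68 of 78 as reported. All alternatives held the 78 members except the authors' table, with 63 of 69 called higher, and the background filter, with 68 of 75. The lowest count, 60, came without scaling between arrays, where the median change of all models moved from -0.05 to -0.17 and 9.95% of them were called higher. With the replicate block the count was 63, and 12.7% of all models were called higher. The calls lost were those of models 230 and 233 of chromosome 1, 391 of chromosome 2, 118 of chromosome 3 and 98 of chromosome 6. Same-numbered arrays deviated from their group means with correlations of -0.044, -0.059 and -0.033, so the numbers were not taken as pairs. With 1 array left out at a time, 61 to 65 members were called higher and 47 to 52 changed by over 1. In these fits 11.7% to 14.2% of all models were called higher. The share of all models that changed by over 1 was not counted in any alternative. Without background correction 46 members changed by over 1. The run medians on chromosomes 2 and 6 were then 0.78 and 2.67, against 1.07 and 3.26 as reported. After subtraction of the random-probe mean, the medians on chromosomes 1 and 6 were 2.14 and 3.66. On chromosome 14 the median was 1.70 with median centring, 1.56 without scaling between arrays and 1.75 among sets above background on at least 3 arrays. On chromosome 2 it was 0.96 without scaling. The authors' table gave 0.95 on chromosome 2 and 2.94 on chromosome 6. The filtered fit held 75 members with the values as reported, so fewer entered its medians. The authors' table held 69 members, 8 of them in the chromosome 6 run. The part of the missing members in the medians from that table was not tested, nor was the cause of the other shifts. Leaving out each array gave 1.48 to 1.82 on chromosome 14 and 0.89 to 1.16 on chromosome 2. The remaining run medians moved by less than the SD over the UV arrays, and no run median changed sign. No slide block could be fitted, as all arrays shared a slide. Low signal in the dark limits how well the folds of models 102, 103, 225 and 116 are known. The brightest sets, 4 of the chromosome 2 run, lay near the top of the scale.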
